A study of Homo sapiens with 6 samples.

Results

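The 10 genes described here are YAP1 and WWTR1, which encode the transcriptional coactivators YAP and TAZ, and 8 genes known as their targets: CCN1, CCN2, AMOTL2, AJUBA, LATS2, CRIM1, DOCK5 and NT5E. They were chosen by symbol from the 23059 genes in the deposited tables, where all 10 were found, and all 10 passed the filter on low counts and were among the 15173 genes tested. HCC-LM3 is an established human line of hepatocellular carcinoma selected for its capacity to metastasise. The cells were given apigenin, a flavone found in plants, or DMSO, the solvent control. Total RNA of 3 samples per group, named biological replicates in the labels, was sequenced, and the question was how apigenin changes transcription in these cells. The dose and the duration of treatment were not given in the sources used here, and the data come from 1 cell line.

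YAP and TAZ have no DNA-binding domain of their own and act in the nucleus by binding TEAD transcription factors on DNA. The Hippo kinases restrain them: MST kinases activate LATS kinases, which phosphorylate YAP and TAZ so that they are held in the cytoplasm or degraded. In the liver this pathway is known for the control of organ size, and its loss in mice leads to overgrowth and tumours. Because YAP and TAZ are controlled through phosphorylation and location, the RNA of their target genes is often read in place of the RNA of YAP1 and WWTR1 themselves.

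The libraries held 33882145 to 37983636 counts. Liver markers were present, with ALB at 123 ± 3.3 and TF at 341 CPM in the DMSO libraries (CPM being library-scaled counts with TMM factors), and 4 of the 9 tested liver markers, ALB, APOB, SERPINA1 and TF, fell with apigenin, where 4.22% of all tested genes were called lower (edgeR, adjusted p under 0.05). Leaving out 1 library gave 3 to 7 liver markers lower, the highest without apigenin 3, beside 157 to 1546 of all tested genes lower. The level differed widely between liver markers with DMSO. KRT8 stood at 2550, KRT18 at 854, APOB at 84 and SERPINA1 at 40.6 CPM. AFP stood at 7.66, TTR at 2.91, APOA1 at 1.48 and EPCAM at 0.171 CPM. Of the fibroblast markers, the 7 genes summed to 23.8 to 26 CPM with DMSO and 29.3 to 31.8 CPM with apigenin, nearly all of it LUM, while COL1A2 was at 0.0624 and PDGFRB at 0.00896 CPM with DMSO. The 5 endothelial markers summed to 105 to 111 CPM with DMSO and 87.4 to 96.3 CPM with apigenin, carried by KDR and PECAM1, with CDH5 at 0.118 CPM. Leukocyte markers summed to 87.4 to 95.1 and 86 to 95.4 CPM, carried by CD68, with PTPRC at 0.127 CPM and CD3E at 0 in the DMSO libraries. LUM was called higher (log2 fold change 0.33, edgeR adjusted p = 0.0313) and lost the call without DMSO 1, DMSO 2, DMSO 3 or apigenin 1. Of the 3 tested endothelial markers edgeR called 0, though 2 were lower at an unadjusted p under 0.05. KDR was called lower by DESeq2, and by edgeR with no filter, with the filter of 1 CPM and without apigenin 2, and PECAM1 without apigenin 3. The part of these markers in the results below was not tested. Fold changes also ran with gene length across the transcriptome. Relative to the DMSO mean, the slope of log2 CPM per doubling of gene length was -0.071, -0.021 and -0.147 in apigenin 1, 2 and 3, against 0.001, -0.005 and 0.003 in the DMSO libraries. With that trend removed, by subtracting each library's fitted trend, 7 of the 9 liver markers were called lower, and KDR as well. In that fit 5.38% of all tested genes were called lower. TF was no longer called, and APOA1, TTR, KRT8 and KRT18 were called in addition. Leaving out 1 library with the trend removed gave 4 to 7 liver markers lower, beside 371 to 986 of all tested genes. KDR then kept its call only without apigenin 2.

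Of the 10 genes, 4 fell with apigenin, 0 rose and 6 did not pass the test. At an unadjusted p under 0.05, 5 were lower and 0 higher with edgeR, and DESeq2 also called 4 lower and 0 higher. Those that fell were CCN2, a secreted matrix protein gene, DOCK5, an activator of Rac GTPases, CRIM1, a transmembrane protein that binds bone morphogenetic proteins, and NT5E, the surface enzyme CD73. Over all 15173 tested genes 4.22% were called lower and 2.76% higher (edgeR's quasi-likelihood test, Benjamini-Hochberg adjusted p under 0.05). The median log2 fold change of the 10 genes, apigenin over DMSO, was -0.19, beside 0.0039 over all tested genes. In CPM with TMM factors, every apigenin library lay below every DMSO library in 6 of the 10, as in 15.0% of all tested genes, and above in 0 of the 10, against 14.4%. On the deposited FPKM the groups overlapped for YAP1, 1 of those 6. The genes were chosen by symbol with earlier results of these data known, so these shares describe the 10 genes and are no test of the group. In bulk RNA, fewer cells with a high level and less RNA per cell cannot be told apart.

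**Figure D1:**
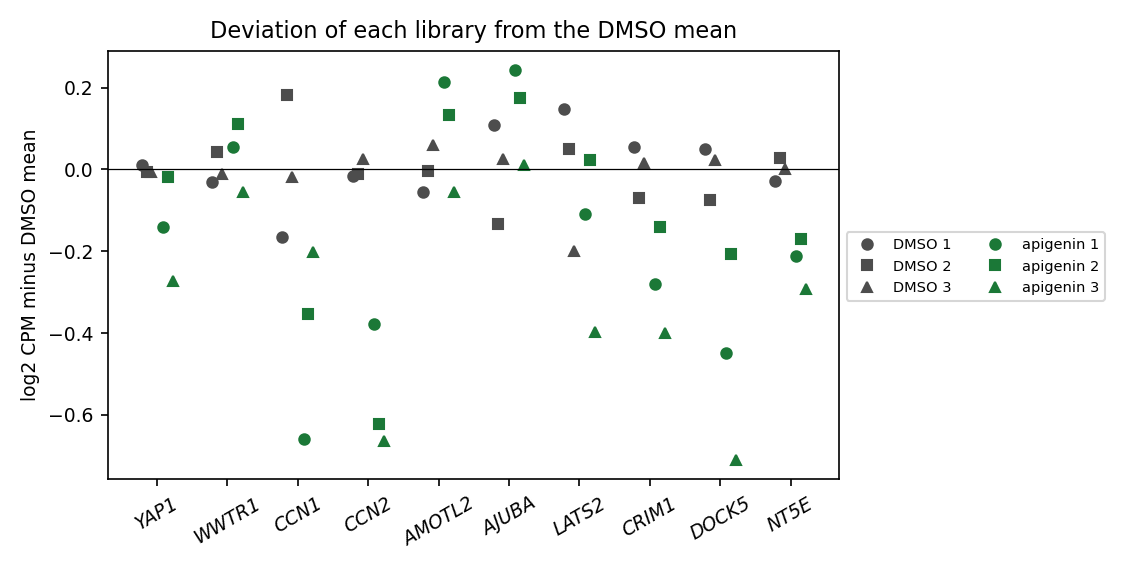
Log2 CPM of each of the 10 genes (x axis) in each library minus the mean of the 3 DMSO libraries (y axis), with DMSO in grey, apigenin in green and the replicate number as the symbol. All 3 apigenin libraries lie below the DMSO libraries for YAP1, CCN1, CCN2, CRIM1, DOCK5 and NT5E, and the groups overlap for the other 4 genes.

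YAP1 and WWTR1, the 2 coactivators, did not pass the test. YAP1 (chromosome 11, 102110447 to 102233424 on GRCh38.p14) had 169, 167 and 167 CPM in the DMSO libraries and 152, 166 and 139 CPM in the apigenin libraries. Apigenin 2 lay just below the DMSO libraries and apigenin 3 furthest below them. The log2 fold change of YAP1 was -0.14 ± 0.066 (SE, n = 3 per group, edgeR adjusted p = 0.208), and it passed only without apigenin 2, of 18 other settings (-0.21, adjusted p = 0.0194). With the length trend removed it was -0.08 ± 0.047. WWTR1 (chromosome 3, 149517235 to 149724788) had 114, 119 and 115 CPM with DMSO and 120.5, 125 and 112 CPM with apigenin, so that the groups overlapped. Its log2 fold change was 0.04 ± 0.061 (edgeR adjusted p = 0.758), and it was -0.00056 without apigenin 2 and 0.09 with the length trend removed. WWTR1 overlaps WWTR1-AS1, which had 1 to 22 counts per library.

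Set against each other within a library, where the scaling factor cancels, YAP1 was lower relative to WWTR1 with apigenin. The log2 ratio of their FPKM values (counts scaled to gene length and library total) was 0.47, 0.38 and 0.43 with DMSO and 0.23, 0.30 and 0.21 with apigenin. The groups did not overlap, and the means were 0.43 ± 0.045 and 0.25 ± 0.047 (SD, n = 3). The difference of -0.18 had an exact two-sided permutation p = 0.1, the smallest that 3 against 3 libraries can give, or 0.2 adjusted over the 2 ratios computed. The genes are of like length in the deposited tables, at 6210 and 5781 nucleotides. Per length, YAP1 RNA was 1.35 times that of WWTR1 with DMSO and 1.19 times with apigenin.

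CCN2, also called connective tissue growth factor, had the largest fall of the 10 genes with all 6 libraries in, but not with each of them left out. Without apigenin 2 the log2 fold change of DOCK5 was -0.58 against -0.52 for CCN2, and without apigenin 3 CCN1 stood at -0.51 against -0.50. CCN2 encodes a secreted matricellular protein that acts on adhesion, fibrosis and vessel growth, and it is widely read as a YAP and TAZ target. CCN2 (chromosome 6, 131948176 to 131951372) had 70.8, 71.1 and 72.9 CPM with DMSO and 55.1, 46.5 and 45.2 CPM with apigenin. The DMSO libraries were close together, and all apigenin libraries lay below them. Its level fell by 31.7%, a log2 fold change of -0.55 ± 0.078 (edgeR adjusted p = 0.0011). Without the length trend its log2 fold change was -0.62 ± 0.072 (edgeR adjusted p = 9.59e-06). The fall was called with any 1 library left out (-0.64 to -0.50, adjusted p of 1.8e-05 to 0.0145). Of the 18 other settings it missed the threshold in 1, limma on log2(FPKM + 1) with no filter (-0.53, adjusted p = 0.0629). CCN2 lies within CCN2-AS1 in RefSeq, and a strand setting for the counting was not given in the sources used here, so reads of that gene cannot be told apart from its own.

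The 250 bases before the start site are shown for the genes whose window holds the TEAD core motif, CCN2 and YAP1, and for NT5E, a called gene whose window holds none. The sequences are from RefSeq on GRCh38.p14, 5′ to 3′ on the strand of the gene, with GGAATG, the TEAD core, in capitals.
CCN2, chr6:131951373-131951622, minus strand: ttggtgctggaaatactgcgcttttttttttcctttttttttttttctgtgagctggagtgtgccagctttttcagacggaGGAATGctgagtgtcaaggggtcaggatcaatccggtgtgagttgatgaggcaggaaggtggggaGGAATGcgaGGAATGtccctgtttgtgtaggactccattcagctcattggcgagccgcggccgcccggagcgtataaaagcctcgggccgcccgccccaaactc
YAP1, chr11:102110197-102110446, plus strand: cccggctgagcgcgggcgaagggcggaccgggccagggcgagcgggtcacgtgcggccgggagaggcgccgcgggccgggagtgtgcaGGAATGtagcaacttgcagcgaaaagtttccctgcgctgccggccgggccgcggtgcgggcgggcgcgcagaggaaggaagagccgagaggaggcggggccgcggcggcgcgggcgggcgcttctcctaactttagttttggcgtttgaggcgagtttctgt
NT5E, chr6:85449833-85450082, plus strand: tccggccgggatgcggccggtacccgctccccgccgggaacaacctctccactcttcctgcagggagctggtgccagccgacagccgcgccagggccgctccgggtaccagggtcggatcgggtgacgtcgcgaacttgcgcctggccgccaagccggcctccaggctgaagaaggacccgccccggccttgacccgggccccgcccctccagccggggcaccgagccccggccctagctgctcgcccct
The motif GGAATG was searched on both strands (CATTCC on the other). CCN2 held it 3 times, starting 169, 104 and 95 bases before the start site, and YAP1 once, 162 bases before it. Of 27305 promoter windows of the same length, 11.9% held it at least once and 0.0952% at least 3 times. Of the 10 genes, 7 had a promoter in the RefSeq table used, and CCN1, CRIM1 and DOCK5 did not. The windows of WWTR1, AMOTL2, AJUBA, LATS2 and NT5E did not hold these letters, and that of WWTR1 lies inside the span of the gene, before another start than its outermost one. This says nothing of sites elsewhere. The AP-1 motif TGANTCA, searched the same way, was in 0 of the 7 windows and in 6.6% of all windows. A match is a description of the letters and not a measured binding site.

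CCN1, also called CYR61, is a matricellular relative of CCN2 and an immediate early gene. CCN1 (chromosome 1, 85580761 to 85583950) had 9.28, 11.8 and 10.3 CPM with DMSO and 6.57, 8.14 and 9.04 CPM with apigenin. All apigenin libraries lay below the DMSO libraries, but apigenin 3 and DMSO 1 were close. The log2 fold change was -0.40 ± 0.145, and it did not pass the test (edgeR adjusted p = 0.106). It passed with the length trend removed (-0.47 ± 0.138, adjusted p = 0.0335), and without apigenin 3 (-0.51, adjusted p = 0.0315). With the trend removed the call was lost again without DMSO 2, DMSO 3 or apigenin 1 (-0.38, -0.48 and -0.36, adjusted p of 0.173, 0.0906 and 0.163).

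CCN1 and CCN2 did not keep the same order among the apigenin libraries. The log2 deviation from the DMSO mean was -0.66, -0.35 and -0.20 in apigenin 1, 2 and 3 for CCN1, and -0.38, -0.62 and -0.66 for CCN2. Apigenin 1 was thus the lowest library for CCN1 and the highest of the treated libraries for CCN2. Their log2 FPKM ratio, CCN1 over CCN2, was -2.90, -2.55 and -2.79 with DMSO and -3.03, -2.48 and -2.28 with apigenin, and the groups overlapped. The means were -2.75 ± 0.176 and -2.60 ± 0.388 (SD, n = 3; exact two-sided permutation p = 0.6, or 0.6 adjusted over the 2 ratios). The difference of 0.15 was -0.0085 without apigenin 3.

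DOCK5, CRIM1 and NT5E also fell. DOCK5 (chromosome 8, 25184689 to 25415711) had 69.7, 63.9 and 68.4 CPM with DMSO and 49.3, 58.3 and 41.1 CPM with apigenin. Its level fell by 26.3%, a log2 fold change of -0.44 ± 0.101 (edgeR adjusted p = 0.0203). The apigenin libraries were spread widely, with apigenin 3 lowest. CRIM1 (chromosome 2, 36355778 to 36551135) had 105, 96.8 and 103 CPM with DMSO and 83.6, 92.1 and 76.9 CPM with apigenin. It fell by 17.1% (log2 fold change -0.27 ± 0.072, edgeR adjusted p = 0.0386). Apigenin 2 was nearest to the DMSO libraries and apigenin 3 furthest from them, as for DOCK5.

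NT5E makes the surface enzyme that turns extracellular AMP into adenosine. NT5E (chromosome 6, 85450083 to 85495784) had 95.5, 99.3 and 97.5 CPM with DMSO and 84.2, 86.6 and 79.6 CPM with apigenin. It fell by 14.3% (log2 fold change -0.22 ± 0.061, edgeR adjusted p = 0.0415), with little spread in either group and no overlap between them. The calls of DOCK5, CRIM1 and NT5E were each lost without DMSO 1, DMSO 2, DMSO 3 or apigenin 1, with log2 fold changes of -0.48 to -0.42, -0.31 to -0.24 and -0.24 to -0.21 in those fits and adjusted p of up to 0.125, 0.19 and 0.17. Each was called without apigenin 2 or without apigenin 3.

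The 3 other genes encode proteins that act on the pathway itself, and none of them passed the test. AMOTL2 encodes an angiomotin that holds YAP out of the nucleus, and AMOTL2 (chromosome 3, 134355345 to 134375417) had 19.1, 19.8 and 20.7 CPM with DMSO and 23, 21.8 and 19.1 CPM with apigenin. AJUBA encodes a LIM domain protein that inhibits LATS kinases, and AJUBA (chromosome 14, 22971177 to 22982551) had 41.7, 35.3 and 39.4 CPM with DMSO and 45.8, 43.7 and 39 CPM with apigenin. Apigenin 3 lay among the DMSO libraries for both. The log2 fold changes were 0.10 ± 0.096 for AMOTL2 (edgeR adjusted p = 0.561) and 0.14 ± 0.085 for AJUBA (edgeR adjusted p = 0.327). LATS2, the kinase that phosphorylates YAP and TAZ, lies on chromosome 13 (20973036 to 21061586) and had 5.76, 5.37 and 4.51 CPM with DMSO and 4.8, 5.27 and 3.93 CPM with apigenin. The groups overlapped, and the log2 fold change of LATS2 was -0.16 ± 0.173 (edgeR adjusted p = 0.624), the widest error of the 10 genes, from 132 to 214 counts per library. With the length trend removed it was -0.10. The 3 genes were called in 0 of the 18 other settings, DESeq2 among them.

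The length trend touched the 10 genes unequally. CCN1 and CCN2, at 2278 and 2338 nucleotides, lie in the length range of 1987 to 3182 nucleotides, where 1.32% of tested genes fell. NT5E, at 3562 nucleotides, lies in the range of 3182 to 4711, where 2.77% fell. YAP1, WWTR1, AMOTL2, AJUBA and LATS2 lie between 4711 and 7091 nucleotides, where 5.57% fell. CRIM1 and DOCK5, at 11637 and 10678 nucleotides, are in the group of 7092 nucleotides or more, where 11.0% fell. With the trend removed DOCK5 stood at -0.30 ± 0.067 (edgeR adjusted p = 0.00666) and NT5E at -0.24 ± 0.053 (edgeR adjusted p = 0.00475). With 1 library also left out, DOCK5 lost that call without DMSO 1 (-0.28, edgeR adjusted p = 0.0578). NT5E kept it whichever library was left out (edgeR adjusted p up to 0.0365). With all libraries in and the trend removed, the other long gene was not called. This was CRIM1, which stood at -0.11 ± 0.051 (edgeR adjusted p = 0.177). With the trend removed 4 genes fell, CCN1, CCN2, DOCK5 and NT5E, of which 3 were among the 4 called on the counts, beside 5.38% of all tested genes lower and 4.63% higher. Among the apigenin libraries the levels of YAP1, WWTR1, LATS2, CRIM1, DOCK5 and NT5E were highest in apigenin 2 and lowest in apigenin 3. The slopes on length have the same order. The levels of CCN1, CCN2, AMOTL2 and AJUBA were not in that order. The share of all tested genes in that order was not computed, and a link to the length trend was not tested.

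**Figure D2:**
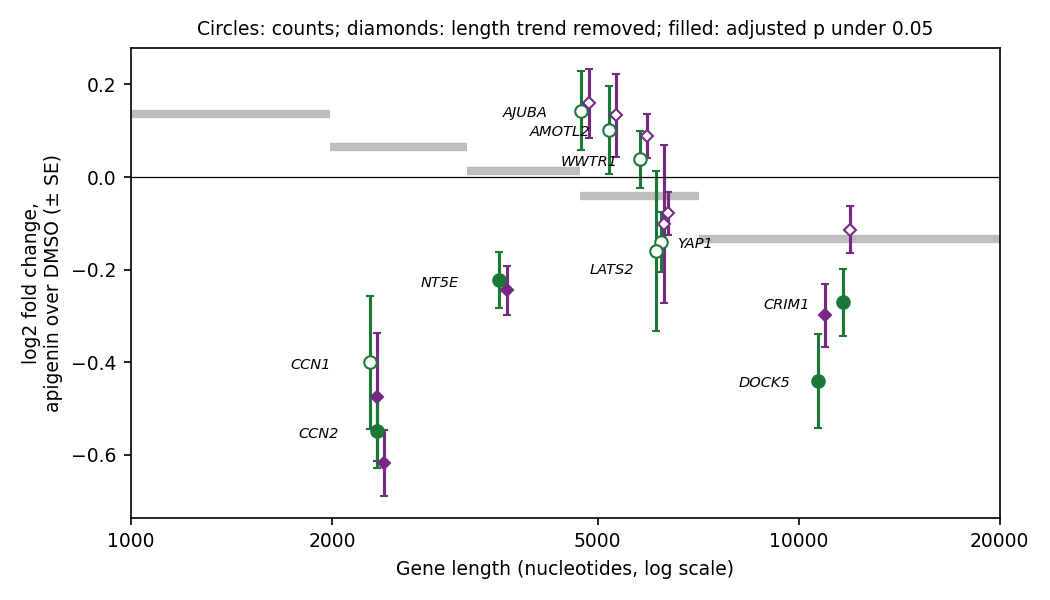
Log2 fold change, apigenin over DMSO, with its SE (y axis) against gene length in nucleotides on a log scale (x axis), from the counts (green circles) and with the length trend removed (purple diamonds, drawn slightly to the right); filled symbols have an adjusted p under 0.05, and grey bars are the median of all tested genes in each of 5 equal groups by gene length. CCN2, DOCK5 and NT5E are called both ways and lie below the grey bars of their length. CRIM1 is called from the counts only, and CCN1 only with the trend removed.

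Per length, CCN2 had the highest level of the 10 genes with DMSO, at 30.6 ± 0.41 FPKM (SD, n = 3). NT5E at 27.4 ± 0.578 and YAP1 at 27 ± 0.201 FPKM followed, and their libraries overlapped. WWTR1 stood at 20.1 ± 0.565 FPKM. CRIM1 at 8.74 ± 0.365 and AJUBA at 8.21 ± 0.676 FPKM overlapped as well. DOCK5 (6.31 ± 0.27 FPKM), CCN1 (4.59 ± 0.571 FPKM) and AMOTL2 (3.83 ± 0.145 FPKM) came next, and LATS2 was lowest at 0.852 ± 0.105 FPKM. Among all tested genes CCN2 lay above 86.9% and LATS2 above 23.8% in the level with DMSO. With apigenin CCN2 stood at 20.9 ± 2.37 FPKM, where its libraries overlapped those of WWTR1 (20.6 ± 1.41 FPKM) and lay below YAP1 (24.5 ± 2.43 FPKM) in the mean. CCN1 (3.47 ± 0.53 FPKM) changed places with AMOTL2 (4.11 ± 0.417 FPKM), but their libraries overlapped.

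**Figure D3:**
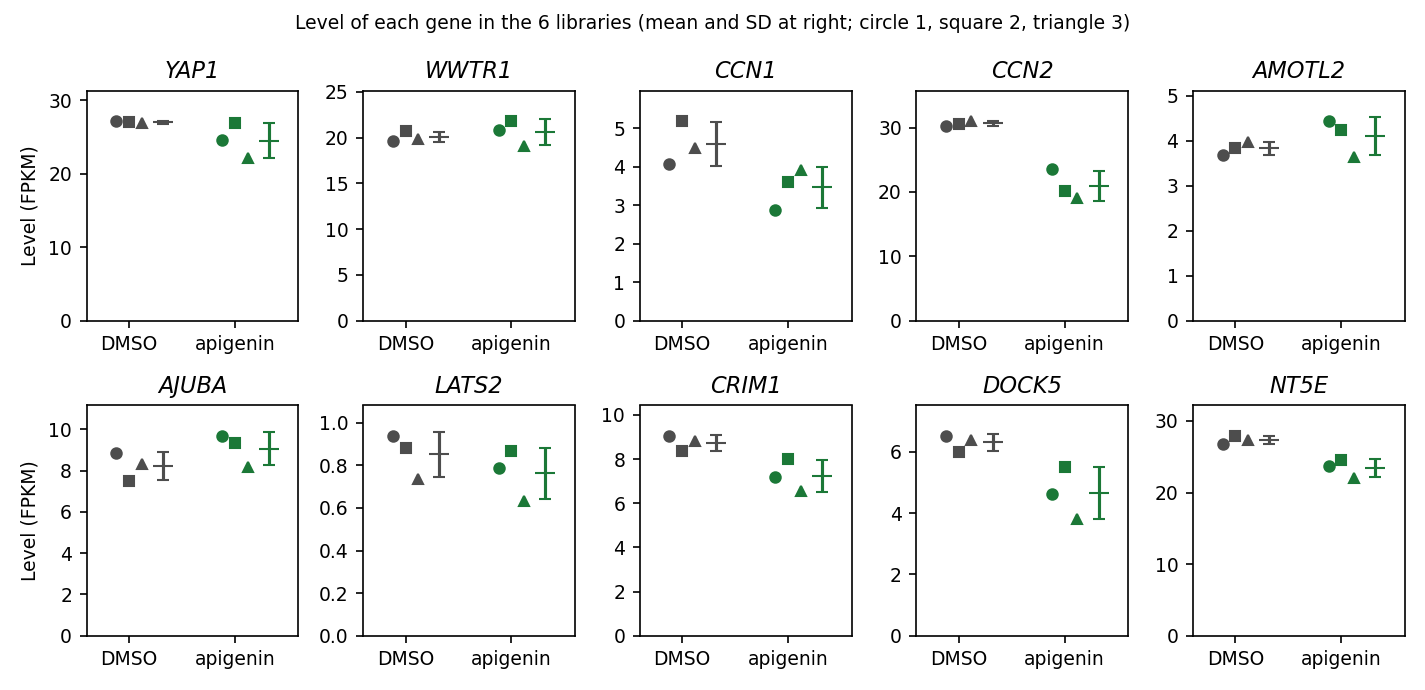
Deposited FPKM (y axis, from 0) of each of the 10 genes in the 3 DMSO and 3 apigenin libraries, with the mean and SD of each group to the right of its points; symbols give the replicate number. CCN2 drops from 30.6 to 20.9 FPKM with no overlap, while the groups overlap for YAP1, WWTR1, AMOTL2, AJUBA and LATS2.

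The genes whose pattern over the 6 libraries was nearest to that of YAP1, CCN1 and CCN2 were taken by the root mean square difference of log2 CPM minus the DMSO mean, among 10711 genes whose mean was at least 5 CPM. Among those nearest to CCN2 were CCDC74B (0.07) and SSX2IP (0.074). Nearest to YAP1 were the integrin gene ITGB1 (0.0088), CHST11 (0.012) and ZNF507 (0.017). Nearest to CCN1 were GTF2IRD1 (0.039), PCBP4 (0.063) and SLC44A3 (0.089). These distances are a description over 6 libraries that share their scaling, their treatment and the trend on length.

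The TEAD factors, through which YAP and TAZ reach DNA, and their VGLL cofactors did not pass the test. Of 6 tested genes edgeR called 0, with 3 lower at an unadjusted p under 0.05, while DESeq2 called 1. Their median log2 fold change was -0.12, and -0.08 with the length trend removed. TEAD1 was the most abundant of the 4 TEAD genes per length, at 11.5 ± 0.283 FPKM with DMSO. TEAD1 had 110.3, 105 and 109.8 CPM with DMSO and 93.3, 101 and 74.8 CPM with apigenin, without overlap (log2 fold change -0.27 ± 0.089, edgeR adjusted p = 0.0805). It passed with DESeq2 (adjusted p = 0.0342), with no filter on low counts (edgeR adjusted p = 0.0029) and without apigenin 2 (-0.37, adjusted p = 0.0045). With the length trend removed it stood at -0.15 and did not pass. TEAD2 stood at -0.37 ± 0.116 (edgeR adjusted p = 0.0707) and passed with the length trend removed (-0.41, adjusted p = 0.0285). With the trend removed the call of TEAD2 was lost again without DMSO 2, DMSO 3 or apigenin 1. TEAD3 stood at 0.03 ± 0.144 and TEAD4 at 0.10 ± 0.11, and both were slightly below 0 with the trend removed (-0.0082 and -0.0018). VGLL3, named after its values were seen, stood at -0.53 ± 0.171 (edgeR adjusted p = 0.0777). It was called lower with no filter, with the replicate block and without apigenin 2, but not with the length trend removed.

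Of 26 Hippo kinases, adaptors and upstream regulators, 4 fell and 0 rose, with a median log2 fold change of -0.09 in edgeR (DESeq2 also called 4 and 0, and 6 were lower and 1 higher at an unadjusted p under 0.05 in edgeR), beside 4.22% of all tested genes lower. Of the 26 genes 14 are of 7092 nucleotides or more, the length range in which 11.0% of all tested genes fell, and 2 of the 14 fell. Those that fell were TNIK (-0.45 ± 0.107, edgeR adjusted p = 0.0253), MAP4K3 (-0.29 ± 0.064, adjusted p = 0.0157), MAP4K4 (-0.20 ± 0.053, adjusted p = 0.0356) and WWC3 (-0.32 ± 0.085, adjusted p = 0.0388). TNIK and the MAP4K genes encode related kinases, of which MAP4K kinases can activate LATS, and WWC3 encodes a relative of the scaffold KIBRA. All 4 missed the threshold without DMSO 1, DMSO 2, DMSO 3 or apigenin 1, where adjusted p reached 0.142 for TNIK, 0.113 for MAP4K3, 0.171 for MAP4K4 and 0.171 for WWC3. Leaving out 1 library gave 0 to 8 of the 26 lower, the highest without apigenin 2, where 1546 of all tested genes were lower. Once the length trend was removed, the list's median was 0.015. Then 2 fell, TNIK (-0.31) and MAP4K3 (-0.28), beside 5.38% of all tested genes lower. MAP4K4 (-0.09) and WWC3 (-0.24) were not called. With the trend removed TNIK lost its call without DMSO 3, and MAP4K3 kept its call whichever library was left out. NF2, named after its values were seen, was called higher with the trend removed and all libraries in. With the trend removed it kept that call without apigenin 2, but not without any other library or with the replicate block. The core kinase genes were not called: STK3 stood at -0.0016 ± 0.0779, STK4 at -0.09 ± 0.069 and LATS1 at -0.25 ± 0.097 (edgeR adjusted p = 0.995, 0.478 and 0.124). LATS1 passed without apigenin 2 (-0.38, adjusted p = 0.006) and with no filter on low counts (adjusted p = 0.0437), and stood at -0.14 with the length trend removed. STK3 and STK4, which encode the MST kinases, were above 0 with the trend removed (0.13 and 0.023).

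Most of the other known targets of YAP and TAZ reported here did not pass the test. Of 15 further genes of a published 22-gene target signature, 12 were tested, 1 fell and 0 rose, with a median of -0.08 (4 lower and 0 higher at an unadjusted p under 0.05 in edgeR, and 1 and 0 called by DESeq2), where 4.22% of all tested genes were lower and 2.76% higher. That median was -0.00067 with the length trend removed, -0.29 without apigenin 2, where 3 fell, and 0.04 without apigenin 3. Without apigenin 2, 1546 of all 15513 tested genes were called lower. The gene that fell was IGFBP3, which binds insulin-like growth factors in the blood, with 150.3, 147.8 and 145.5 CPM with DMSO and 120.4, 115.5 and 122.5 CPM with apigenin (-0.31 ± 0.056, edgeR adjusted p = 0.00515). Its groups did not overlap, and it lost its call only without DMSO 1 among the 6 libraries left out in turn (-0.30, adjusted p = 0.059). ANKRD1, a cardiac ankyrin repeat protein gene widely used as a YAP reporter, had 4 to 10 counts per library and was not tested. Of 11 genes named elsewhere as targets, 9 were tested and edgeR called 0, with a median of 0.09 (2 higher and 1 lower at an unadjusted p under 0.05 in edgeR, and 0 called by DESeq2). With the length trend removed their median was 0.03 and CAV1, named after its values were seen, was called lower, as it was without apigenin 3, and without apigenin 2 FSCN1, likewise named after its values were seen, was called higher.

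Relatives of the 10 genes, the other angiomotins, Ajuba family genes and CCN genes, were not called. Of 8 genes 5 were tested, and edgeR and DESeq2 called 0, with 1 lower at an unadjusted p under 0.05 in each. AMOT had 0 counts in 5 of the 6 libraries and 4 counts in apigenin 2, so that AMOTL2 was the main angiomotin gene measured. AMOTL1 stood at 1.51 ± 0.384 CPM with DMSO and 1.63 ± 0.81 CPM with apigenin (log2 fold change 0.12 ± 0.38, edgeR adjusted p = 0.898, and 0.23 with the length trend removed). LIMD1, named after its values were seen, was called lower with no filter and without apigenin 2.

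**Figure D4:**
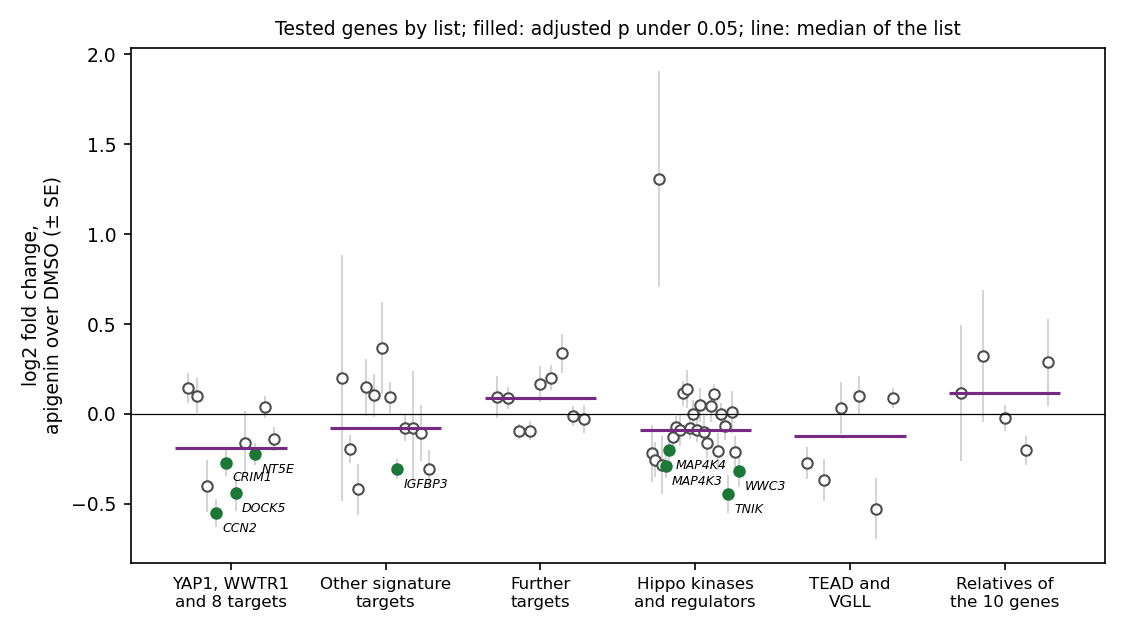
Log2 fold change, apigenin over DMSO, with its SE (y axis) for each tested gene of the 10 genes and of 5 lists of related genes (x axis); filled points have an adjusted p under 0.05 and the line is the median of the list. The called genes are 4 of the 10, IGFBP3 and 4 Hippo regulators, and each of these lies below 0.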

How the data were processed

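The authors deposited, for each of the 6 samples, raw read counts per gene symbol and FPKM values made with fastp, HISAT2 and HTSeq on GRCh38 (hg38), per the submitters' processing notes. Versions and strand setting were not given in the sources used here. Deposited FPKM equal the count over a fixed gene length and the library total for 100% of nonzero values (relative tolerance 0.0001), and gene lengths were taken from them.

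Groups of 3 were compared with edgeR 4.0.16 (R 4.3.3; quasi-likelihood test, TMM factors, default filter on low counts, 15173 genes kept, Benjamini-Hochberg adjustment over all of them at 0.05). CPM use TMM factors; the SE is the log2 fold change over the root of F. Alternatives were DESeq2 1.42.0, other factors and filters, the replicate number as a block, limma 3.58.1 on log2(FPKM + 1), keeping genes at 0.5 FPKM in 3 libraries or all genes, the same with a pseudocount of 0.1, each library left out, and each library's lowess trend (span 0.3) on log2 gene length removed as an offset. Leaving out libraries with that trend removed was chosen after seeing the data. The steps were tested on simulated data. The genes and lists were chosen with earlier results of these data known. Named beside the 10 genes are up to 5 called genes per list (mean of 1 CPM or more), 10 set pathway genes and the 3 genes nearest in pattern to YAP1, CCN1 and CCN2. A gene of the target lists and a gene near CCN2 in pattern fall under these rules and are not reported here; list counts leave the former out. Promoters and positions came from RefSeq (GRCh38.p14), in which 21752 of the 23059 symbols matched. P-values rest on 3 samples per group. The edgeR test sets the difference between the groups against the spread between samples, estimated in part across all tested genes.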

Additional observations from a re-analysis of the deposited data

How the results depend on the processing

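The labels do not say whether the replicate numbers pair the libraries. Deviations from the group means of same-numbered DMSO and apigenin libraries correlated at -0.017, -0.019 and -0.048 over the tested genes. These values show no pairing, but with 3 libraries per group they cannot exclude it. With the replicate number as a block, 455 genes were higher and 776 lower, and 3 of the 10 genes fell, with NT5E not called (-0.22, adjusted p = 0.0598), and TEAD1 passed (-0.28, adjusted p = 0.037). Over all genes, against 419 higher and 641 lower, DESeq2 called 658 higher, no filter gave 865 higher and 1096 lower, and removing the length trend gave 702 higher (828 with the replicate block as well). Limma on log2(FPKM + 1) and log2(FPKM + 0.1) called 303 and 289 lower, and without a filter 78 higher and 60 lower. Leaving out 1 library gave 103 to 1344 higher and 157 to 1546 lower, the highest without apigenin 2, and with the length trend also removed the counts that moved by over 1.5 times were 980 and 651 higher (without apigenin 2 or 3) and 371, 399 and 986 lower (without DMSO 1, DMSO 3 or apigenin 2). Of the 10 genes, 1 fell with limma on FPKM with either pseudocount and 0 with no filter (5 lower at an unadjusted p under 0.05). Leaving out 1 library left 1 to 5 of the 10 lower, CCN2 among them each time. Upper-quartile factors moved the median of all genes to 0.0089. The cause of these shifts was not tested.

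Some values near 0 turned sign. With the length trend removed, and with the replicate block as well, TEAD3 stood at -0.0082 and -0.0048, TEAD4 at -0.0018 and -0.0018, STK3 at 0.13 and 0.13, and STK4 at 0.023 and 0.023. STK3 stood at 0.0035 with upper-quartile factors and 0.00086 with the filter of 1 CPM. Over libraries left out in turn, TEAD3 ranged from -0.072 to 0.18, STK3 from -0.070 to 0.057, AMOTL1 from -0.32 to 0.42 and WWTR1 from -0.00056 to 0.083. The difference between the groups in the log2 ratio of CCN1 over CCN2 ranged from -0.0085 to 0.37. LATS2 had the fewest counts and the widest SE of the 10 genes, and all fits rest on 3 libraries per group.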

Other observations

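Removing the trend on gene length exchanged a pair of calls among the 10 genes. CCN1 went from an adjusted p of 0.106 to 0.0335 (edgeR's quasi-likelihood test) with its log2 fold change going from -0.40 to -0.47, and CRIM1 from 0.0386 to 0.177 with its log2 fold change going from -0.27 to -0.11. The short matricellular genes CCN1 and CCN2 moved further from 0, and the long genes CRIM1 and DOCK5 nearer to it. The median of the 10 genes went from -0.19 to -0.11. In apigenin 1, 2 and 3 that median, on the counts and relative to the DMSO mean, was -0.18, -0.08 and -0.28, against 0.0062, 0.0031 and 0.0075 for all tested genes.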
